A study of Mus musculus with 15 samples.

Results

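The interferon response genes described here are 37 named genes that type I interferon, interferon-gamma or both are known to switch on in mouse cells. They are a list of symbols with no threshold on the values of these arrays, drawn up with earlier results of these data known. Through the annotation of the array platform, 35 of the 37 had a probe set (a group of short probes read as a single value) assigned to that gene alone, out of 18193 genes that had such a probe set. All 35 passed the filter on low values and were tested. The only probe set annotated to Isg15 names several genes, and Ifi44 had none in the annotation, so neither was analysed here. Where a gene had several probe sets, the brightest on average was used.

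Interferons are secreted proteins that bind cell-surface receptors and, through the kinases Jak1 and Tyk2 (Jak2 for interferon-gamma), activate STAT transcription factors. Type I interferon acts through a complex that holds Stat2 and Irf9 and binds a DNA element called the ISRE, while interferon-gamma acts through an element called GAS. The genes switched on sense viral nucleic acid, block viral replication and raise antigen presentation, and in the kidney they can be expressed by resident stromal and tubule cells as well as by infiltrating leukocytes.

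The arrays measured polysomal RNA from kidneys of C57/129sv mice of both sexes, labelled P14-P300, that carried the transgene Tg:Col1a1-eGFPL10a. In TRAP (translating ribosome affinity purification), ribosomes that carry the eGFP-tagged protein L10a are pulled from a lysate with their mRNA. Collagen 1α1 promoter and enhancer sequence drives the tag, so the tag marks whichever cells use that sequence and not pericytes alone. The 5 groups of 3 arrays were the bound fraction after sham surgery (day 0, arrays 1 to 3) and on day 2 (arrays 7 to 9) and day 5 (arrays 10 to 12) of unilateral ureteral obstruction (UUO), in which 1 ureter is tied, and the unbound fraction on day 0 (arrays 4 to 6) and day 5 (arrays 13 to 15). All groups carried the transgene, the labels call the bound tissue kidney pericytes and the unbound tissue kidney medulla, and nothing says which arrays came from separate animals, so p-values measure only the spread between these arrays. In bulk RNA, fewer cells of a type and less RNA per cell cannot be told apart.

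To show the regulatory sequence in front of the members called in the most comparisons, the 250 bases before 1 RefSeq transcription start are printed for 6 members that had such a window (build GRCm38.p6). They are Isg20 (chr7:78913174-78913423, plus strand), Oas1a (chr5:120907526-120907775, minus strand), Tap1 (chr17:34187306-34187555, plus strand), Gbp2 (chr3:142620413-142620662, plus strand), Rsad2 (chr12:26456453-26456702, minus strand) and Irf1 (chr11:53769764-53770013, plus strand). Each runs 5′ to 3′ towards the start. Capitals mark matches to an ISRE core (TTTC, any 2 bases, TTTC, or on the other strand GAAA, any 2 bases, GAAA) or to a GAS core, TTCNNNGAA, which reads the same on both strands.
Isg20: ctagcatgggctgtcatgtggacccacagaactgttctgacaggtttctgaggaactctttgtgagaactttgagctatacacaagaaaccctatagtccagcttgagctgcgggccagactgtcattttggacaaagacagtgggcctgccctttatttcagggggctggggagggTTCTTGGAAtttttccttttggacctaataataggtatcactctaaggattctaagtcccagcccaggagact
Oas1a: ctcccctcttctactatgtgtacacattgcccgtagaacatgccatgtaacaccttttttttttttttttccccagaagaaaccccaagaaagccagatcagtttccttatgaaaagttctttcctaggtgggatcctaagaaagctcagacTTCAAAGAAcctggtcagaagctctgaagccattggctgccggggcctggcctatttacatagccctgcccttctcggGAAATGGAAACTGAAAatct
Tap1: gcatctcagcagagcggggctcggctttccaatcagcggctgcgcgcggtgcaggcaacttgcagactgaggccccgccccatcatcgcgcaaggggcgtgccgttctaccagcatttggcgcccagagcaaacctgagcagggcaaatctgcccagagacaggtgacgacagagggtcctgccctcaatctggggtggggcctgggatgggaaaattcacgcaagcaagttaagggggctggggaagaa
Gbp2: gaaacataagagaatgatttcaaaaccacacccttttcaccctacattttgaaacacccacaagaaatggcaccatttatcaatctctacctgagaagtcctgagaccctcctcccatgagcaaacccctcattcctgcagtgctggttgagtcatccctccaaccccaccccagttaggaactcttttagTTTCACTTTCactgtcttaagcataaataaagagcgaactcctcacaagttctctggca
Rsad2: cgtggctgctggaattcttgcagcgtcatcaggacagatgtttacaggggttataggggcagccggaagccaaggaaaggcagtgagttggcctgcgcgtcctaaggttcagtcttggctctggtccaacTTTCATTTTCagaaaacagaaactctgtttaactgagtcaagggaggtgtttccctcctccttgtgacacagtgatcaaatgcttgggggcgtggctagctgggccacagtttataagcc
Irf1: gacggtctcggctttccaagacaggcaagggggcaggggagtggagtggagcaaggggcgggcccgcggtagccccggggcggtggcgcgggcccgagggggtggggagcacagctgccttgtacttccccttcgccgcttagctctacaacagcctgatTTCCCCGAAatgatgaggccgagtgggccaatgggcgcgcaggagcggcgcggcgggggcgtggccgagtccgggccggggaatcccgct

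Oas1a held 2 overlapping ISRE core matches and 1 GAS core match, Gbp2 and Rsad2 1 ISRE core match each, Isg20 and Irf1 1 GAS core match each, and Tap1 neither. RefSeq windows were at hand for 28 of the 37 members. Of these 28, 13 (46.4%) held the ISRE core in at least 1 window, compared with 936 of 27025 genes with a window (3.46%). The GAS core was present for 8 of the 28 (28.6%) and for 2197 of the 27025 genes (8.13%). Of the 10 members with a window that were higher on some day of obstruction, 5 held the ISRE core and 4 the GAS core. Of the 16 other tested members with a window, 7 and 4 did. Members lower after obstruction also held matches, as Rsad2 shows. A match of letters is a description of these windows and not a measured binding site.

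Values below are log2 intensities after quantile normalization, differences are log2 differences ± standard error (SE) of the limma fit with 3 arrays in each group, and a member is said to have passed at an adjusted p under 0.05. Levels of different genes are not compared, because each probe set has its own brightness. Arrays of a group correlated across genes at 0.918 to 0.973. Arrays 6, 9, 12 and 15 were brighter than the rest, with hybridization controls averaging 12114 to 12905 against 4727 to 5864, and the day 0 bound group holds none of them. Array 11 had a Gapdh 5′ to 3′ ratio of 0.0269 against 0.178 to 0.583 on the others. Of 10 fibroblast and pericyte markers, 7 were higher in the bound than in the unbound fraction on day 0 and 4 on day 5, and all 4 podocyte markers tested were higher on day 0. Of 7 proximal tubule markers, 0 passed as lower in the bound fraction on day 0 and 1 on day 5. For 13 macrophage and monocyte markers the counts were 0 and 2, and for 7 loop, distal tubule and collecting duct markers 1 and 3. None of these was higher there. A change in the bound fraction can therefore not be assigned to tagged cells alone.

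Over all comparisons, 17 of the 35 members passed in at least 1 and 18 in none, where 6235 of all 16860 genes tested passed in at least 1. Compared with day 0, 14 were higher in at least 1 of the 3 comparisons (16.2% of all genes were) and 2, Ifit2 and Rsad2, were lower (12.5% of all genes). Zbp1, Oas1a, Oas2 and Tap1, 4 of the 35, were higher in all 3 (2.70% of all genes). The 3 comparisons with day 0 share control arrays in the bound fraction, so their values are given side by side.

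**Figure D1:**
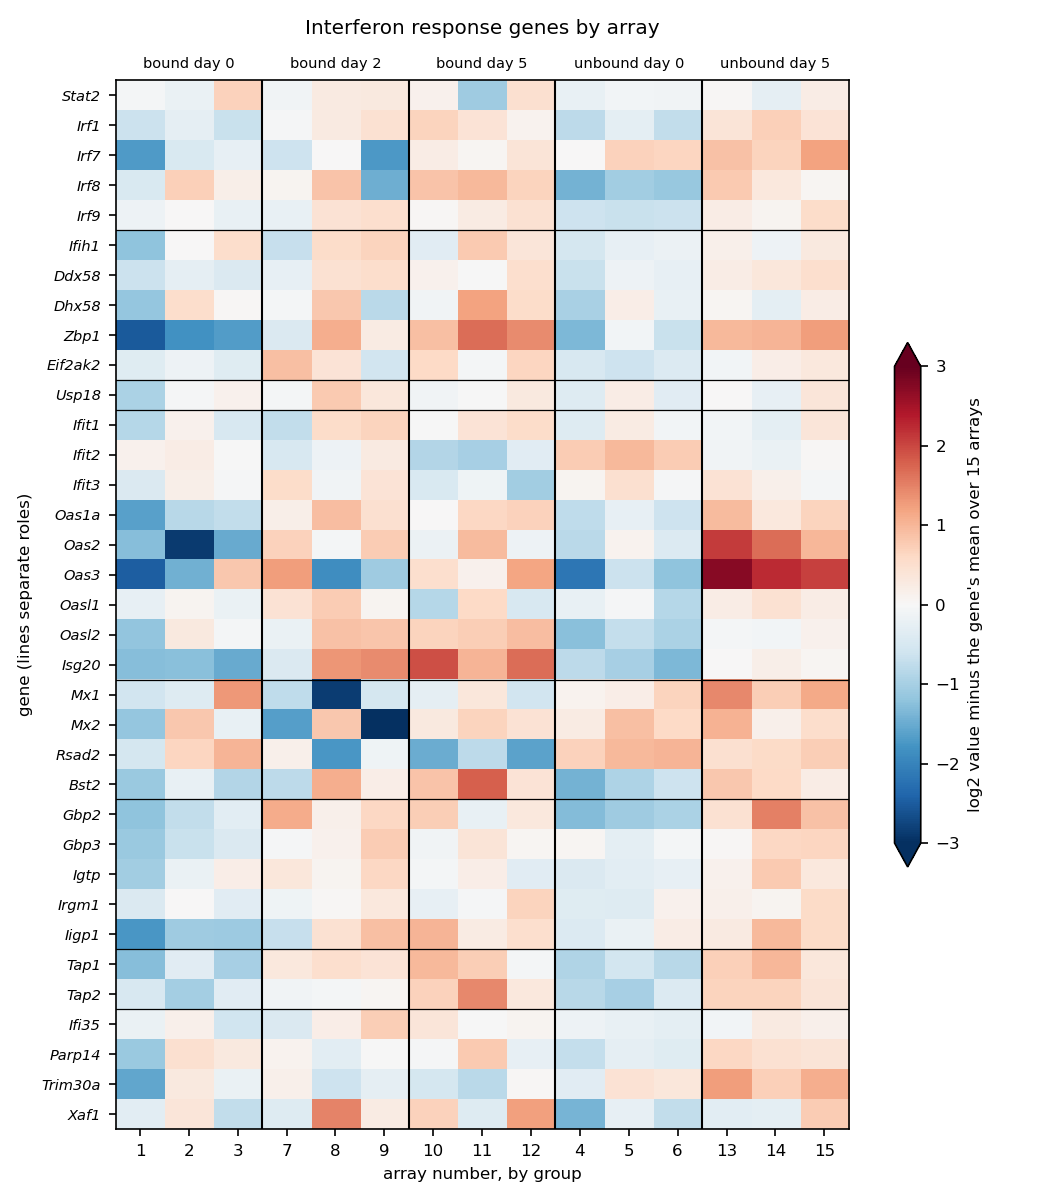
Heat map of the 35 members (rows, grouped by role) on the 15 arrays (columns, by group), coloured by the log2 value minus the gene's mean over all arrays. Zbp1 and Oas2 are lowest on the day 0 bound arrays, Rsad2 is low on the day 5 bound arrays, and array 1 has the lowest mean over the members (8.00).

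On day 2 of obstruction, 8 of the 35 members were higher in the bound fraction than after sham surgery and 0 were lower. The 8 were the sensor Zbp1, the RNA-directed effectors Oas2, Oas1a and Isg20, the GTPases Iigp1, Gbp2 and Gbp3, and the peptide transporter subunit Tap1. The 8 make 22.9% of the members, where 5.60% of all 16860 genes tested passed higher and 3.67% lower. The members' median difference was 0.54 against 0.00 over all genes, and 30 of the 35 differences were positive. Of the 13 markers of macrophages and monocytes tested, 2 were higher in the same comparison, and of 6 neutrophil markers 3 were. Of the 10 fibroblast and pericyte markers 3 were higher, and 4 of 7 proximal tubule and 2 of 7 loop, distal tubule and collecting duct markers were lower.

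By day 5, 11 of the 35 members were higher in the bound fraction than on day 0 (31.4%, against 13.7% of all genes) and 2 were lower (5.71%, against 10.0%). Zbp1 and Isg20 showed the largest differences, with folds of 10.1 and 7.4. Bst2, Tap2, Oasl2 and Irf1 passed on day 5 and had not passed on day 2, whereas Gbp2 passed on day 2 and not on day 5. Between day 2 and day 5 themselves 0 of the 35 members passed in the limma fit (6 at an unadjusted p under 0.05), where 0.510% of all genes were higher and 0.0771% lower, so none of these members was shown to differ between the 2 days. The count became 1 without array 8. Their median was 0.68 against 0.12 over all genes on day 5, and 29 differences were positive. In the same comparison 6 of 13 markers of macrophages and monocytes and 3 of 6 of neutrophils were higher. Of the resident cells' markers, 5 of 10 of fibroblasts and pericytes were higher, while 6 of 7 of the proximal tubule (median -3.15), 6 of 7 of the loop, distal tubule and collecting duct (-1.96), all 4 of podocytes (-1.79) and 4 of 9 of endothelium (-1.31) were lower.

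In the unbound fraction, 9 members were higher on day 5 than on day 0 (25.7%, against 6.44% of all genes) and 1, Ifit2, was lower (2.86%, against 3.93%). The 9 were Irf1, Irf9, Zbp1, Oas1a, Oas2, Oas3, Gbp2, Tap1 and Tap2. Their median over the 35 was 0.74 against 0.01 over all genes, and 31 differences were positive. Of the 13 markers of macrophages and monocytes, 10 were higher here, as were 3 of 6 neutrophil markers and 7 of 10 fibroblast and pericyte markers, and 1 of 7 proximal tubule markers was lower.

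**Figure D2:**
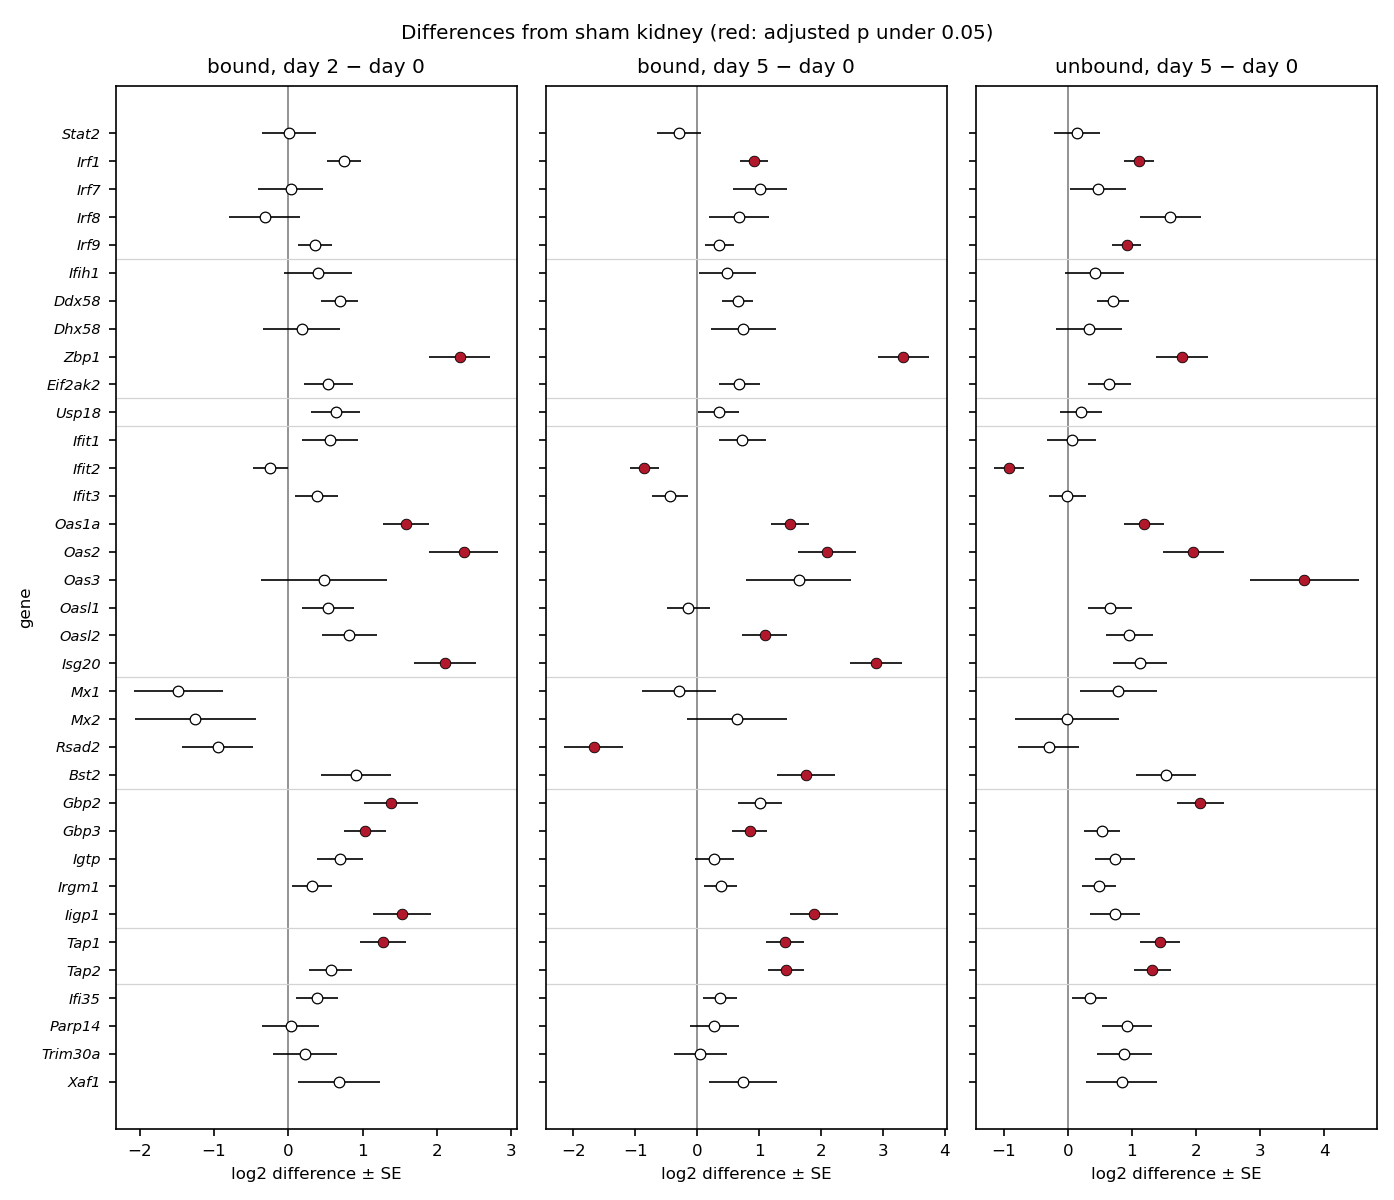
Log2 differences from day 0 (points) with SE (bars) for the 35 members in the bound fraction on day 2 and day 5 and in the unbound fraction on day 5. Red points passed an adjusted p of 0.05: 8, 13 and 10 members from left to right, with Ifit2 and Rsad2 the members below zero among them.

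Among the nucleic acid sensors, Zbp1, which binds left-handed Z-form nucleic acid and can trigger cell death, was the 1 of 5 that passed. In the bound fraction its values were 4.71, 5.41 and 5.54 on day 0, 6.80, 8.32 and 7.47 on day 2, and 8.12, 8.90 and 8.64 on day 5. Its values in the unbound fraction were 5.87, 7.14 and 6.57 on day 0 and 8.19, 8.24 and 8.49 on day 5. The day 0 arrays lay below all later arrays of the same fraction, with no overlap. The difference from day 0 in the bound fraction was 2.31 ± 0.41 on day 2 (limma adjusted p = 0.00443) and 3.33 ± 0.41 on day 5 (adjusted p = 0.000242). The unbound difference was 1.78 ± 0.41 (adjusted p = 0.0168). A second probe set of Zbp1 averaged 5.06, 7.80 and 8.17 in the bound fraction on days 0, 2 and 5.

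The other sensors, Ifih1 (MDA5) and Ddx58 (RIG-I), which detect viral double-stranded RNA, their relative Dhx58, and the kinase Eif2ak2 (PKR), did not pass in any comparison. Their differences on day 5 in the bound fraction ran from 0.49 ± 0.46 for Ifih1 to 0.75 ± 0.52 for Dhx58. The probe sets of Eif2ak2 did not move alike: the one used averaged 9.00 on day 0 and 9.69 on day 5 in the bound fraction, another 8.61 and 6.98.

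The oligoadenylate synthetases make the small messenger that activates RNase L, an enzyme that degrades RNA. Oas1a was at 7.47, 8.27 and 8.35 in the bound fraction on day 0, at 9.27, 10.02 and 9.59 on day 2 and at 9.10, 9.73 and 9.78 on day 5. The unbound arrays were at 8.33, 8.85 and 8.49 on day 0 and at 10.06, 9.42 and 9.77 on day 5. Every array of an obstructed kidney was above every day 0 array. The differences were 1.59 ± 0.31 and 1.50 ± 0.31 on days 2 and 5 in the bound fraction (limma adjusted p = 0.0076 and 0.00538), and 1.19 ± 0.31 in the unbound fraction (adjusted p = 0.0297). Oas1a belongs to a cluster of closely similar Oas1 genes, and whether its probes also read those was not tested.

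Oas2 was at 5.12, 3.52 and 4.88 in the bound fraction on day 0, the lowest of its 5 groups. It was at 7.09, 6.35 and 7.16 on day 2 and at 6.23, 7.34 and 6.25 on day 5. Unbound arrays gave 5.60, 6.50 and 6.00 on day 0 and 8.50, 8.07 and 7.39 on day 5, again with no overlap between days. The differences were 2.36 ± 0.47 on day 2 and 2.10 ± 0.47 on day 5 in the bound fraction (adjusted p = 0.00882 and 0.00828), and 1.96 ± 0.47 in the unbound fraction (adjusted p = 0.0207).

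Oas3 lay at or below the negative controls in 4 of the 5 groups. In the unbound fraction on day 5 it was at 5.95, 5.47 and 5.28, above the controls, against 1.05, 2.58 and 2.02 on day 0. That is at least 2.66-fold higher than the controls of the day 0 arrays allow (adjusted p = 0.016). Of the Oas-like genes, Oasl2 was at 8.84, 10.30 and 9.95 on day 0 and at 10.68, 10.76 and 10.93 on day 5 in the bound fraction, a difference of 1.09 ± 0.37 at the edge of the threshold (adjusted p = 0.05 after rounding, just under it). Oasl1 did not pass in any comparison.

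Isg20, an exonuclease that degrades single-stranded RNA, was at 7.47, 7.50 and 7.24 in the bound fraction on day 0. On day 2 it was at 8.31, 10.06 and 10.15 and on day 5 at 10.67, 9.77 and 10.42. Unbound values were 7.95, 7.74 and 7.40 on day 0 and 8.75, 8.92 and 8.79 on day 5. All arrays of obstructed kidneys were above the day 0 arrays, and the day 5 bound arrays were above the day 5 unbound arrays. The differences from day 0 were 2.11 ± 0.42 on day 2 (adjusted p = 0.00811) and 2.89 ± 0.42 on day 5 (adjusted p = 0.000645) in the bound fraction. The unbound difference of 1.13 ± 0.42 did not pass (adjusted p = 0.111).

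The Ifit genes code for proteins that bind viral RNA ends, and 1 of the 3 tested passed. Ifit2 was at 10.31, 10.41 and 10.19 in the bound fraction on day 0 and at 9.31, 9.19 and 9.86 on day 5. Its values in the unbound fraction were 10.96, 11.17 and 10.95 on day 0 and 10.09, 10.00 and 10.23 on day 5. In both fractions the day 5 arrays were below the day 0 arrays, with differences of -0.85 ± 0.23 (adjusted p = 0.022) and -0.92 ± 0.23 (adjusted p = 0.0274). Ifit1 differed from day 0 by 0.73 ± 0.38 and Ifit3 by -0.44 ± 0.29 in the bound fraction on day 5, and neither passed in any comparison.

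Of the other antiviral effectors, Rsad2 (viperin), an enzyme that makes a chain-terminating nucleotide, fell in the bound fraction. It was at 10.36, 11.51 and 11.90 on day 0, at 11.04, 9.12 and 10.75 on day 2 and at 9.40, 10.09 and 9.26 on day 5. On all 6 unbound arrays it lay between 11.35 and 11.89. The day 5 bound arrays were below all others except array 8 of day 2, which was at 9.12. The difference between days 5 and 0 in the bound fraction was -1.67 ± 0.48 (adjusted p = 0.0263), and its 2 further probe sets were also lower on day 5 than on day 0 there (8.90 against 11.12 and 3.31 against 5.70).

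Bst2 (tetherin), which holds budding virus at the cell surface, was at 7.91, 8.79 and 8.15 in the bound fraction on day 0 and at 9.88, 10.81 and 9.43 on day 5. The groups did not overlap, and the difference was 1.76 ± 0.47 (limma adjusted p = 0.0187). The unbound arrays were at 7.60, 8.10 and 8.40 on day 0 and 9.82, 9.63 and 9.24 on day 5, a difference of 1.53 ± 0.47 that did not pass (adjusted p = 0.0581). The dynamin-like GTPases Mx1 and Mx2 did not pass in any comparison.

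Between day 5 and day 2 of the bound fraction no member passed, and Mx1 (1.19 ± 0.60, limma adjusted p = 0.351) and Zbp1 (1.02 ± 0.41, 0.249) had the largest differences among those measured on both days. Mx2 was at 3.86, 6.32 and 2.08 on day 2, averaging at or below the negative controls, so that only a bound of at least 2.17-fold can be given (adjusted p = 0.275), and at 5.80, 6.19 and 5.94 on day 5. Mx1 was at 5.37, 3.28 and 5.60 on day 2 and at 5.85, 6.45 and 5.54 on day 5. The days overlapped for all 3, and Oas3 was at or below the controls on both days, with no measurable difference. The median over the members was 0.09, as over all genes.

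The guanylate binding proteins and immunity-related GTPases attack the vacuoles of intracellular microbes. Gbp2 was at 8.82, 9.30 and 9.72 in the bound fraction on day 0, at 11.15, 10.19 and 10.65 on day 2 and at 10.76, 9.81 and 10.34 on day 5. Unbound values were 8.72, 8.95 and 9.07 on day 0 and 10.48, 11.55 and 10.90 on day 5. No array of an obstructed kidney was below a day 0 array. The difference was 1.38 ± 0.36 on day 2 (adjusted p = 0.0313) and 1.02 ± 0.36 on day 5 (adjusted p = 0.0572, not passed) in the bound fraction, and 2.07 ± 0.36 in the unbound fraction (adjusted p = 0.00351).

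Iigp1 was at 7.61, 8.27 and 8.26 in the bound fraction on day 0, at 8.66, 9.81 and 10.26 on day 2 and at 10.36, 9.60 and 9.85 on day 5. The day 0 arrays were again the lowest, and the differences were 1.53 ± 0.39 and 1.89 ± 0.39 (adjusted p = 0.0286 and 0.00521). A second probe set of Iigp1 averaged 8.54, 8.94 and 9.17 in the bound fraction on days 0, 2 and 5, a smaller rise. With the mean of its probe sets the day 2 call was lost and that of day 5 stood. In the unbound fraction Iigp1 was at 8.93 to 9.57 on day 0 and 9.62 to 10.33 on day 5, and the difference of 0.74 ± 0.39 did not pass. Gbp3 was at 9.24, 9.70 and 9.92 on day 0 and at 10.32, 10.49 and 11.13 on day 2 in the bound fraction (1.03 ± 0.28, adjusted p = 0.0382), and differed by 0.85 ± 0.28 on day 5. Igtp and Irgm1 did not pass in any comparison.

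Tap1 and Tap2 form the transporter that carries peptides to MHC class I molecules. Tap1 was at 7.11, 8.06 and 7.39 in the bound fraction on day 0, at 8.71, 8.89 and 8.79 on day 2 and at 9.36, 9.12 and 8.33 on day 5. Its values in the unbound fraction were 7.50, 7.84 and 7.56 on day 0 and 9.10, 9.38 and 8.72 on day 5. No later array reached down to a day 0 array. The differences were 1.28 ± 0.31 on day 2 (adjusted p = 0.0223), 1.42 ± 0.31 on day 5 (adjusted p = 0.00699) and 1.44 ± 0.31 in the unbound fraction (adjusted p = 0.0115). The 3 further probe sets of Tap1 averaged 0.46 to 5.07, near or below the negative controls. With the mean of all 4 probe sets, Tap1 turned to -0.22 on day 2 and to -0.09 in the unbound fraction.

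Tap2 was at 6.95, 6.40 and 7.09 in the bound fraction on day 0, at 7.32, 7.36 and 7.47 on day 2 and at 8.11, 8.86 and 7.74 on day 5. The unbound arrays were at 6.58, 6.42 and 7.02 on day 0 and at 8.08, 8.09 and 7.80 on day 5. Both fractions were higher on day 5 than on day 0, by 1.43 ± 0.29 (adjusted p = 0.00505) and 1.32 ± 0.29 (adjusted p = 0.0133).

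Of the transcription factors, Irf1, itself a target and a driver of the interferon-gamma response, was at 9.46, 9.84 and 9.43 in the bound fraction on day 0 and at 10.77, 10.51 and 10.22 on day 5. Unbound values were 9.31, 9.81 and 9.37 on day 0 and 10.50, 10.81 and 10.52 on day 5. In neither fraction did the days overlap, with differences of 0.92 ± 0.23 (adjusted p = 0.0145) and 1.11 ± 0.23 (adjusted p = 0.00964). Irf9, the DNA-binding partner of Stat2, was at 9.26, 9.21 and 9.23 in the unbound fraction on day 0 and at 10.09, 9.95 and 10.42 on day 5 (0.92 ± 0.23, adjusted p = 0.0238). Irf8, a factor of myeloid cells, differed there by 1.60 ± 0.48 and did not pass (adjusted p = 0.0545). Stat2 and Irf7, the factor that amplifies the type I response, did not pass in any comparison.

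The deconjugating protease Usp18, and Ifi35, Parp14 and Xaf1 among the other induced genes, passed in no comparison. The probe set of Ifi35 carries the suffix that the manufacturer gives to sets that may match more than 1 gene.

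**Figure D3:**
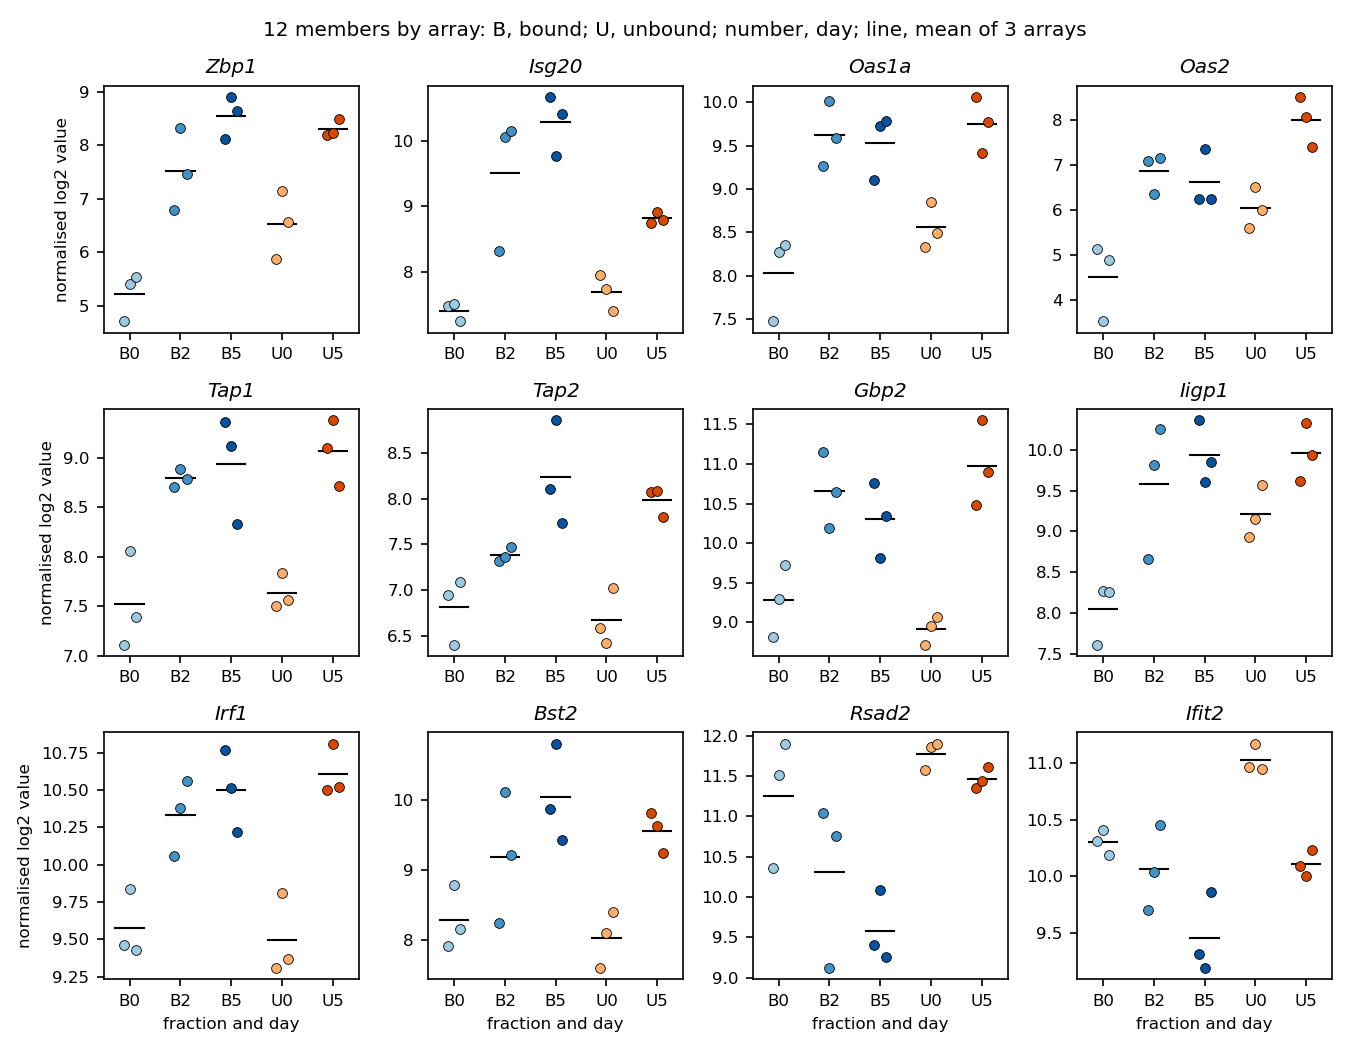
Log2 values of 12 members on each array (points) with group means (lines) for the bound (B) and unbound (U) fractions on days 0, 2 and 5. The day 0 bound points of Zbp1 lie between 4.71 and 5.54 and all later bound points at or above 6.80. The Rsad2 bound means run from 11.26 on day 0 to 9.58 on day 5, the unbound means from 11.77 to 11.47.

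Leaving out 1 array ended many of these calls. In the bound fraction on day 2, Zbp1, Oas1a, Oas2 and Isg20 passed in all 6 such fits, while Gbp2 was lost without array 1, 2, 7 or 9, Gbp3 without 1, 2, 8 or 9, Iigp1 without 1, 2, 3, 8 or 9, and Tap1 without 1, 3, 8 or 9 (adjusted p up to 0.12 over these). The count of 8 became 4 without array 1 or 9 and 5 without array 2. On day 5 the calls of Zbp1, Isg20, Oas2, Oas1a, Iigp1, Tap1 and Tap2 stood in all 6 fits, while Irf1 was lost without array 3 or 10, Bst2 without 1, 3 or 11, Ifit2 without 2, 10 or 11, Rsad2 without 2, 3, 10 or 12, Oasl2 without any array but 2, and Gbp3 without any of the 6 (adjusted p up to 0.163). The count of 13 became 8 without array 10.

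For the unbound fraction, Gbp2 alone passed in all 6 fits. Irf1 was lost without array 4, Oas3 without 4 or 13, Tap1 without 4 or 14, Tap2 without 4, 5, 13 or 14, Zbp1 without 4, 13, 14 or 15, Oas2 without 4, 6, 13 or 14, Oas1a without 4, 6, 13 or 15, Irf9 without any but 14, and Ifit2 without any of the 6 (adjusted p up to 0.131). The count of 10 became 1 without array 4, 3 without 13, 5 without 14 and 6 without 6 or 15. Without the 4 bright arrays, 0 members passed in the bound fraction on day 2, 9 on day 5 and 1 in the unbound fraction, while the members' medians were 0.57, 0.61 and 0.79. Fits with fewer arrays have less power for every gene. The shares of all genes that passed in them are not given here, so the lost calls are not read as particular to the members.

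Bound and unbound fractions of the same day were then compared, which asks in which fraction a message was relatively more abundant. On day 0, 0 of the 35 members passed in the limma fit in either direction (8 at an unadjusted p under 0.05), where 4.83% of all genes were higher and 4.10% lower in the bound fraction. The members' median was -0.04 against -0.13 over all genes. The 4 largest differences, none of which passed, were those of Oas2 (-1.53 ± 0.47, adjusted p = 0.064), Irf8 (1.34 ± 0.48, 0.104), Zbp1 (-1.30 ± 0.41, 0.0695) and Irf7 (-1.26 ± 0.44, 0.101). Irf7, for example, was at 6.96, 8.20 and 8.41 in the bound and 8.67, 9.35 and 9.31 in the unbound fraction. Irf8 was at 8.98, 10.15 and 9.61 against 8.02, 8.39 and 8.29.

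On day 5, 1 member was higher in the bound fraction (2.86%, against 6.38% of all genes) and 2 were lower (5.71%, against 7.76%), shares near or under those of all genes. Isg20 was higher by 1.47 ± 0.42 (limma adjusted p = 0.0363). Rsad2 was lower by 1.88 on the log2 scale, at -1.88 ± 0.48 (adjusted p = 0.0249), with 9.40, 10.09 and 9.26 in the bound and 11.35, 11.44 and 11.61 in the unbound fraction. Trim30a, a ubiquitin ligase of the TRIM family, was at 9.68, 9.42 and 10.26 against 11.48, 10.94 and 11.31, a difference of -1.45 ± 0.43 (adjusted p = 0.0425). None of these groups overlapped. Oas3, at or below the negative controls in the bound fraction and at least 2.05-fold lower there, did not pass (-1.74 ± 0.85, adjusted p = 0.189). The median over the members was -0.13 against 0.03 over all genes.

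Trim30a was lost without any 1 of the 6 arrays, and Isg20 and Rsad2 without any but array 11 (adjusted p 0.0318 to 0.124 over the 3), so the count of 3 became 0 without array 10, 12, 13, 14 or 15. Without the 4 bright arrays 0 of the members, and 0 of all genes, passed, with Isg20 at 1.40 and Rsad2 at -1.69.

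**Figure D4:**
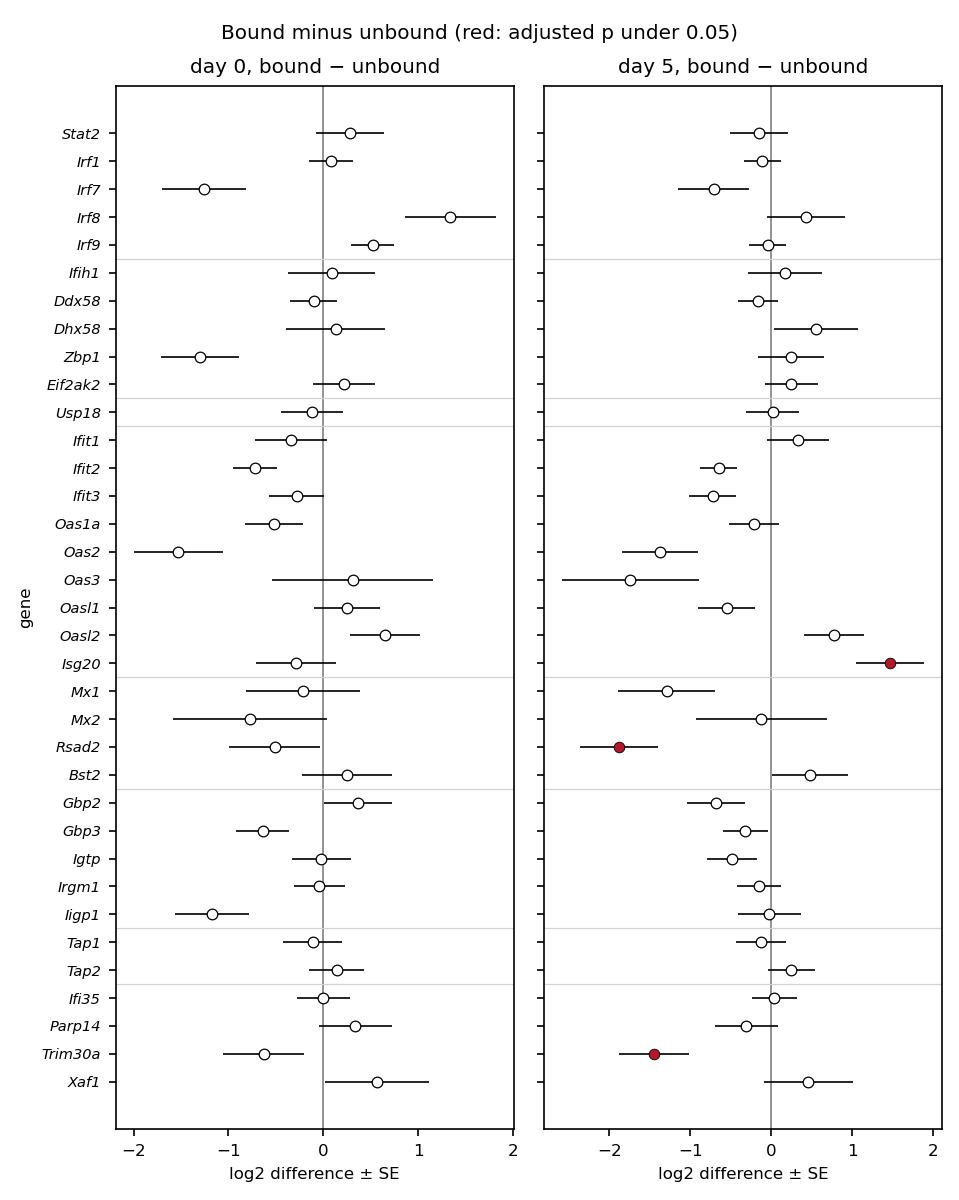
Log2 differences of bound minus unbound (points) with SE (bars) for the 35 members on day 0 and day 5. No member is red (passed) on day 0, and on day 5 Isg20 (1.47) is red to the right and Rsad2 (-1.88) and Trim30a (-1.45) to the left.

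The change in enrichment from day 0 to day 5, the difference between the bound and unbound responses, was tested directly. Of the 35 members 0 passed in the limma fit (2 at an unadjusted p under 0.05), where 0.0178% of all genes were higher and 0% lower. The 2 were Isg20 (1.76 ± 0.59, adjusted p = 0.235) and Zbp1 (1.55 ± 0.58, adjusted p = 0.278). On day 0 Zbp1 averaged 5.22 (bound) and 6.52 (unbound), and on day 5 it averaged 8.55 and 8.31. Rsad2 differed by -1.37 ± 0.68 (adjusted p = 0.383), with a 95% interval of -2.85 to 0.11. The change for Oas3 could not be measured, since 3 of its 4 groups lay at or below the negative controls. The members' median was 0.03 against 0.09 over all genes. A response that passed in 1 fraction and not in the other is therefore not shown to differ between fractions.

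Other genes of the pathway were read from lists. Interferon ligands were barely measured: of 13 listed, 7 had a probe set and 4 passed the filter. Ifnb1 and Ifng averaged at or below the negative controls in all 5 groups, and Ifna1, whose fitted difference passed in the bound fraction on day 5, was at or below them on both days, so no direction is read from it. Of 9 receptor and kinase genes 1 passed: Ifnar2, a chain of the type I receptor, was higher in the bound fraction on day 5 (0.97 ± 0.28), at 9.75, 9.48 and 9.32 on day 0 and 10.76, 10.45 and 10.25 on day 5. That call was lost without array 2, 3, 10 or 11 (adjusted p up to 0.0953). In that comparison 13.7% of all genes were higher, so 1 of 9 is not read as a result about this list.

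Of 14 further sensor and adaptor genes, 4 were higher in the bound fraction on day 2, 5 on day 5, and 5 in the unbound fraction on day 5, with 0 lower, where 5.60%, 13.7% and 6.44% of all genes were higher. Sting1, the adaptor of cytosolic DNA sensing, was at 8.03, 8.48 and 8.02 in the bound fraction on day 0, at 9.51, 10.05 and 10.19 on day 2 and at 10.47, 11.00 and 10.30 on day 5. Its differences were 1.74 ± 0.26 and 2.41 ± 0.26, and 2.44 ± 0.26 in the unbound fraction. Cgas, which makes the messenger that Sting1 detects, differed by 1.76 ± 0.48, 2.01 ± 0.48 and 2.13 ± 0.48, the Toll-like receptor adaptor Myd88 by 1.06 ± 0.22, 1.46 ± 0.22 and 1.13 ± 0.22, and the kinase Ikbke by 1.31 ± 0.33, 2.17 ± 0.33 and 1.21 ± 0.33. Aim2 passed in the bound fraction on day 5 (1.69 ± 0.38) and Tlr7 in the unbound fraction (3.20 ± 0.87). Sting1 and Myd88 passed in every fit that left out 1 array in these 3 comparisons, although Myd88 was lost on day 2 and in the unbound fraction without the 4 bright arrays, while Cgas was lost on day 2 without array 1, 2, 8 or 9 and in the unbound fraction without 4, 6 or 13, Ikbke on day 2 without 1, 3, 8 or 9 and in the unbound fraction without any but 5, and Tlr7 without any but 6 (adjusted p up to 0.156).

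Between the fractions, the adaptors Mavs (-1.39 ± 0.28) and Ticam1 (-1.26 ± 0.34) were lower in the bound fraction on day 0. On day 5, Ikbke (1.22 ± 0.33) and Myd88 (0.76 ± 0.22) were higher and Tlr3 (-0.88 ± 0.26) was lower there. Mavs was lost without array 5, Ticam1 without any but 2, Ikbke without any but 13, and Myd88 and Tlr3 without any 1 of the 6 (adjusted p up to 0.148).

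The feedback inhibitor Socs3, which blocks cytokine receptor kinases and also responds to interleukin-6 family cytokines, showed some of the largest differences. It was at 8.44, 9.11 and 8.22 in the bound fraction on day 0, at 10.79, 11.67 and 12.21 on day 2 and at 11.83, 12.32 and 11.80 on day 5. The differences were 2.97 ± 0.35 and 3.39 ± 0.35 (bound) and 4.06 ± 0.35 (unbound) (limma adjusted p = 0.000288, 6.48e-05 and 4.57e-05), and these calls stood in every fit without 1 array. Of the 9 inhibitors tested, 2 were higher and 1 lower in the bound fraction on day 2, and 2 higher and 2 lower on day 5. In the unbound fraction 2 were higher and 0 lower. Over all genes 5.60%, 13.7% and 6.44% were higher in these 3 comparisons, and 3.67%, 10.0% and 3.93% lower. Ptpn2, a phosphatase of Jak1 and STAT proteins, was, like Socs3, higher in all 3 (1.08 ± 0.18, 1.00 ± 0.18 and 0.78 ± 0.18). The unbound call was lost without array 4, 13 or 14 (adjusted p up to 0.0862). With the mean of its probe sets the unbound difference turned negative and the 2 bound calls were lost. Without the 4 bright arrays the day 2 and unbound calls were lost. The day 2 call was also lost in a fit of only the groups compared, and the unbound call with median centring. Trim21 was lower in the bound fraction (-1.11 ± 0.30 on day 2 and -1.39 ± 0.30 on day 5), the former lost without array 1, 2, 8 or 9 (up to 0.11), and Otud1 on day 5 (-1.22 ± 0.39), lost without any but 12 (up to 0.118).

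Between the fractions, Socs3 was higher in the bound fraction on day 0 (1.56 ± 0.35), lost without array 2, 4 or 6 (adjusted p up to 0.0753). Cish was lower there on day 5 (-1.44 ± 0.30). Socs1, another inhibitor of JAK kinases, averaged at or below the negative controls in all 5 groups.

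Of 41 further interferon-induced genes, 3 were higher and 0 lower in the bound fraction on day 2, 3 higher and 4 lower on day 5, and 7 higher and 1 lower in the unbound fraction. Over all genes tested 5.60% were higher on day 2 and 13.7% on day 5, so in the bound fraction these counts lie near or under the share of all genes, and in the unbound fraction 6.44% were higher. Slfn2, a schlafen family gene of leukocytes, was at 7.06, 6.23 and 7.67 in the bound fraction on day 0 and at 9.39, 9.81 and 9.85 on day 2 (2.70 ± 0.41). It was at 9.89, 10.31 and 9.27 on day 5 (2.84 ± 0.41), and differed by 2.15 ± 0.41 in the unbound fraction. Parp9, a partner of the ubiquitin ligase Dtx3l, differed by 1.19 ± 0.23, 1.20 ± 0.23 and 1.27 ± 0.23 in the same 3 comparisons, and Phf11d by 1.69 ± 0.31 and 2.12 ± 0.31 in the 2 bound ones. These calls stood in every fit without 1 array, but those of Parp9 and Phf11d on day 2, and that of Parp9 in the unbound fraction, were lost without the 4 bright arrays.

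The 4 that were lower in the bound fraction on day 5 included the checkpoint ligand Cd274 (-1.70 ± 0.36), Znfx1 (-1.55 ± 0.40) and Samd9l (-1.27 ± 0.33). Znfx1 was lost without array 2 or 3 and Samd9l without 3 or 10 (adjusted p up to 0.0698). In the unbound fraction the chemokine Cxcl10 (1.39 ± 0.33), Lgals3bp (1.22 ± 0.25) and Epsti1 (1.73 ± 0.50) were higher and Ifit1bl1 (-1.54 ± 0.36) was lower. Of these, Lgals3bp alone stood in every fit without 1 array, and Cxcl10 and Epsti1 were lost without any 1 of the 6 arrays and Ifit1bl1 without 4, 5, 14 or 15 (adjusted p up to 0.164).

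Between the fractions, 5 of the 41 were higher and 2 lower in the bound fraction on day 0, where 4.83% of all genes were higher and 4.10% lower. The 5 higher genes included Slfn5 (3.42 ± 0.62), Lgals3bp (1.87 ± 0.25) and 2 membrane proteins that block virus entry, Ifitm1 (2.17 ± 0.33) and Ifitm2 (1.29 ± 0.25). Ifitm1 was at 13.25, 13.30 and 12.89 in the bound and 10.94, 10.98 and 11.01 in the unbound fraction. These 5 calls stood in every fit without 1 array, but that of Ifitm2 and 1 other were lost with median centring and without the 4 bright arrays. Ifit1bl1 (-1.63 ± 0.36) and Phf11d (-1.15 ± 0.31) were lower, the first lost without array 1, 2, 4 or 5 and the second without any 1 of the 6 (adjusted p up to 0.13). On day 5, 3 were higher and 4 lower, near the shares of all genes (6.38% higher and 7.76% lower). Slfn5 (2.63 ± 0.62), Ifitm1 (1.69 ± 0.33) and Lgals3bp (1.18 ± 0.25) were higher. The 4 lower ones included Epsti1 (-2.17 ± 0.50), Samd9l (-1.57 ± 0.33) and Gbp7 (-0.94 ± 0.25). Ifitm1 and Samd9l stood in every such fit, while Lgals3bp was lost without array 13, Slfn5 without 10, 13 or 14, Epsti1 without 10, 12, 13 or 15, and Gbp7 without any 1 of the 6 (adjusted p up to 0.0965).

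Of 11 antigen presentation genes that interferon-gamma induces, 2 were higher in the bound fraction on day 2, 2 higher and 1 lower on day 5, and 3 higher in the unbound fraction. Over all genes 5.60% were higher on day 2, 13.7% higher and 10.0% lower on day 5, near the shares in this list on that day, and 6.44% higher in the unbound fraction. Psmb8, a catalytic subunit of the immunoproteasome that cuts peptides for Tap1 and Tap2, was at 8.62, 8.43 and 8.33 in the bound fraction on day 0, at 10.02, 9.90 and 10.05 on day 2 and at 10.21, 10.26 and 10.22 on day 5. The differences were 1.53 ± 0.16, 1.77 ± 0.16 and, in the unbound fraction, 1.26 ± 0.16, and stood in every fit without 1 array. All 3 calls were lost with the mean of its probe sets, and that of day 2 also in a fit of only the groups compared. Erap1, which trims peptides, was higher on day 2 (1.10 ± 0.25), lost without array 3 or 9 (adjusted p up to 0.0567), and Psmb10 on day 5 (1.05 ± 0.25). The class I gene H2-D1 was lower in the bound fraction on day 5 (-1.16 ± 0.20), at 11.94, 11.74 and 11.85 on day 0 and 10.79, 10.79 and 10.49 on day 5, but with the mean of its probe sets the sign turned. Class I genes are closely alike in sequence, and whether the probes read several of them was not tested.

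For day 5 of the unbound fraction, Psmb9 (1.19 ± 0.30) and H2-K1 (0.91 ± 0.24) were higher, lost without any array but 6 and any but 5. H2-D1 (-1.06 ± 0.20) and H2-K1 (-0.84 ± 0.24) were lower in the bound than in the unbound fraction on day 5, the latter lost without any 1 of the 6 arrays, and Psmb8 was lower on day 0 (-0.67 ± 0.16), lost without any but array 1 (adjusted p up to 0.141 over these). The H2-D1 call stood in every fit without 1 array. All of these calls between fractions were lost with median centring, with the mean of their probe sets and without the 4 bright arrays.

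Macrophage, monocyte and neutrophil markers moved in the same arrays. Of 10 T and NK lymphocyte markers, 0 were higher and 1 was fitted lower in the bound fraction on day 2, and 0 passed on day 5. The 1 fitted lower, Ncr1, averaged 2.96 on day 0 and 1.21 on day 2. It was above the negative controls on none of these arrays, so no direction is read from it. None of 3 B lymphocyte markers passed in the bound fraction on either day. Of 7 dendritic markers, 0 were higher on day 2 and 1 on day 5. The summed linear signal of the 13 macrophage and monocyte markers was 2592 to 8160 in the bound fraction on day 0, 5341 to 19039 on day 2 and 7876 to 19824 on day 5. It was 6905 to 9629 in the unbound fraction on day 0 and 31242 to 36553 on day 5, and Cd14 and Lyz2 were lower in the bound than in the unbound fraction on day 5. For the 6 neutrophil markers the sums were 92 to 126, 840 to 4667 and 667 to 2285 in the bound fraction on days 0, 2 and 5, and 272 to 371 and 2337 to 6252 in the unbound fraction. The part of these cells, and of the resident cells whose markers fell or rose, in the members' differences was not tested.

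Among defining markers, Itgam averaged at or below the negative controls in all groups but the unbound one of day 5, and Cxcr2 in every group of both fractions. Of the 6 neutrophil markers 1, Mpo, passed as higher in the bound than in the unbound fraction on day 5, and 0 as lower. The median over the 6 was -1.01. S100a8 and S100a9 averaged 8.17 and 9.32 in the bound against 10.06 and 11.55 in the unbound fraction. Of 10 T and NK lymphocyte markers 5 to 7 lay at or below the negative controls in the bound groups, and 1 in the unbound fraction on day 5. Of 3 B lymphocyte markers 2 did in each bound group, and of 7 dendritic markers 4 or 5. Array by array, the day 5 unbound arrays had the highest means both over the macrophage and monocyte markers and over the members, and array 1 the lowest of both (6.38 and 8.00). Array 11 was the highest of the day 5 bound arrays in both (9.22 and 9.28), and array 7 the highest of the day 2 bound arrays in the markers (9.58) and the lowest in the members (8.85).

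**Figure D5:**
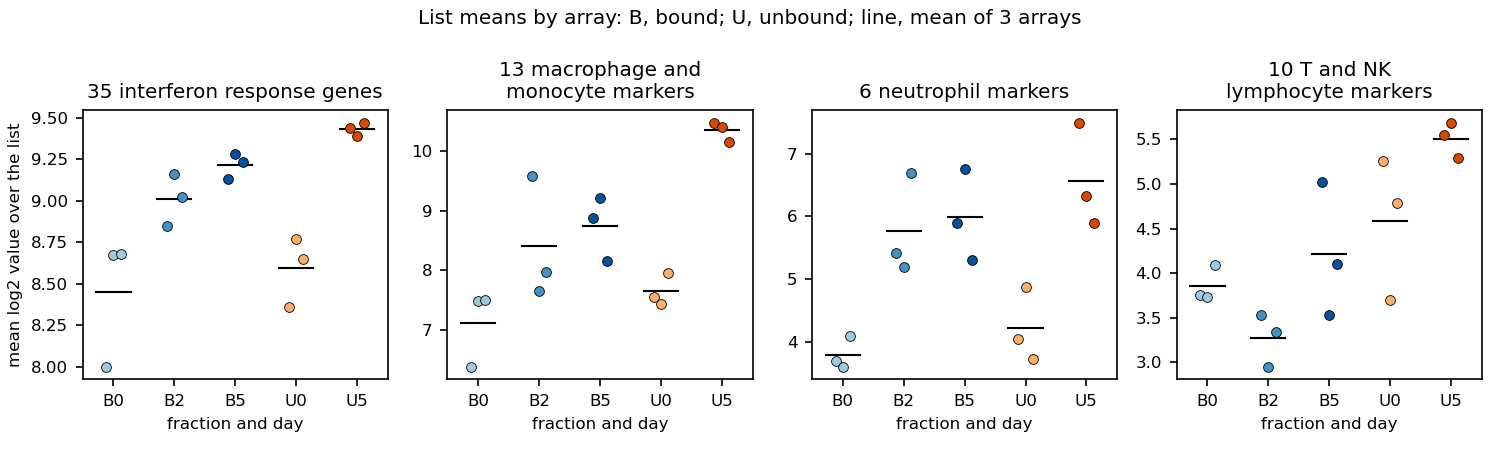
Mean log2 value over the 35 members and over 3 marker lists on each array (points), with group means (lines), for the bound (B) and unbound (U) fractions. The members run from 8.00 to 8.68 on the day 0 bound arrays and from 9.13 to 9.28 on the day 5 bound arrays, and the macrophage and monocyte list is highest in the unbound fraction on day 5 (10.16 to 10.48).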

How the data were processed

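The authors deposited linear probe set intensities of mouse Affymetrix arrays, 1 column per array. Per the labels' protocols, polysomal RNA was amplified in 1 round with a NuGEN kit and labelled with biotin. How probes were summarised or scaled is not given in the sources used here. Array medians of the deposited intensity ran from 16.4 to 198.7, so log2(value + 1) was quantile normalized over the 15 arrays. The brightest probe set stood for a gene, and a gene was kept if 3 or more arrays placed it over their 25th percentile (16860 of 18193). The tests used limma (version 3.58.1, R version 4.3.3), a mean for every group, 7 contrasts and Benjamini-Hochberg adjustment over all genes tested. The highest of 27 negative control probe sets on an array served as its floor.

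The members and gene lists were chosen with earlier results of these data known. All members are accounted for. Values by array are given for members that passed (the 8 largest per comparison in full, or the 4 largest differences where fewer than 4 passed, with those at the negative controls as bounds or not measurable), and passing pathway genes are named, at most 6 per list and comparison by size of the difference. Promoters shown are of the members called in the most comparisons, ties going to the larger difference. Further settings were tried as described in the closing section. The fit was tested on simulated data.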

Additional observations from a re-analysis of the deposited data

How the results depend on the processing

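Of the 34 calls of members, 3 stood under all 9 settings and all left-out fits (Zbp1, Isg20 and Iigp1 in the bound fraction on day 5). Calls lost were 24 without the 4 bright arrays, 16 with only the groups of a contrast, 9 with median centring, 6 with brightness as a covariate, 5 with the mean of all probe sets, 4 with array weights, 1 with no filter, 0 with a pseudocount of 16 and 0 with a filter at the 50th percentile. The unbound call of Oas3 was checked under 8 settings only, and the filter that left this gene untested is not counted as a loss. Tap1 turned to -0.22 (bound, day 2) and -0.09 (unbound) with the mean of all probe sets. Median centring moved the median of all genes to 0.34 (bound, day 5), -0.22 (unbound) and 0.41 (bound against unbound, day 5), with the members at 0.93, 0.49 and 0.23, and the split of calls in the unbound fraction to 5 higher and 0 lower. Of 75 calls in the pathway lists, 40 stood in all left-out fits and 16 under every setting tried. They lost 49 without the bright arrays, 27 with median centring, 21 with only the groups of a contrast and 20 with the mean of all probe sets. The causes were not tested.

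Counts of members called that moved by over 1.5 times, and the range with an array left out, were as follows. The share of all genes called under each setting is not given here, so these counts are not read as particular to the members. Bound against unbound on day 0 (0 called) gave 2 with the 50th percentile filter, 1 with the mean of probe sets and 8 with array weights. On day 5 (3) it gave 5 with the pseudocount of 16, 10 with array weights, 0 without the bright arrays and 6 with only the groups, and 0 to 3 with an array left out. Bound day 2 against day 0 (8) gave 5 with array weights, 0 without the bright arrays, 5 with the brightness covariate and 0 with only the groups, and 4 to 10 with an array left out. Bound day 5 against day 0 (13) gave 5 with only the groups and 8 to 10 with an array left out, and 9 without the bright arrays, where Oas1a, Oasl2, Rsad2 and Gbp3 were lost. Day 5 against day 2 (0) gave 0 to 1 with an array left out. Unbound day 5 against day 0 (10) gave 5 with median centring, 20 with array weights, 1 without the bright arrays and 18 with only the groups, and 1 to 7 with an array left out. The change in enrichment (0) gave 4 with array weights and 1 with only the groups. No paired analysis was possible because the array numbers are not shared between groups. The number of arrays limits the precision, as does signal near the negative controls for Oas3, Mx2 and the ligands.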
